A study of Mus musculus with 103 samples.

Results

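The 7 delta protocadherins Pcdh7, Pcdh8, Pcdh9, Pcdh10, Pcdh17, Pcdh18 and Pcdh19 were followed across an atlas of the embryonic mouse face. Members were taken by gene symbol from a list of non-clustered protocadherin genes, with the probe set of highest mean log2 ratio where a symbol had several, and all 7 had values among the 19938 genes measured. Delta protocadherins are single-pass membrane proteins of the cadherin superfamily that mediate weak homophilic contacts between cells and carry short conserved motifs in their cytoplasmic tails. Pcdh7 and Pcdh9 belong to the delta-1 subgroup, which has an additional extracellular cadherin repeat and a tail motif that binds protein phosphatase 1. Pcdh8, Pcdh10, Pcdh17, Pcdh18 and Pcdh19 belong to the delta-2 subgroup, several of whose members recruit the WAVE complex, which drives branched actin assembly, or associate with classical cadherins. In the embryo these genes are known for restricted, often complementary expression in the brain, somites and head.

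Embryos were of the outbred CD1 strain, no genotype or treatment being given in the labels, and regions were cut from frozen sections by laser capture microdissection, with 1 whole-transcript array per sample. At E8.5 the groups were mesenchyme (5 libraries), floor plate (4), caudal neural epithelium (4) and non-floor plate neural epithelium (5). At E9.5 they were otic vesicle (6), epidermal ectoderm (7), mandibular arch (5), maxillary arch (5), neuroepithelium (5) and cranial mesenchyme (6). At E10.5 they were olfactory pit, medial nasal prominence, lateral nasal prominence, neuroepithelium under the medial prominence, neuroepithelium under the lateral prominence, midline neuroepithelium, a control neuroepithelium away from the facial prominences, mandibular arch, maxillary arch ectoderm and mandibular arch ectoderm (4 each), and Rathke's pouch and maxillary arch (5 each). One further E9.5 sample, whose labels name 2 tissues, was compared with nothing, which left 102 libraries in 22 groups.

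Values are log2 of a deposited ratio of each library to a baseline of the same probe set, so 0 is the baseline and levels cannot be set between genes. Means are given ± SD over libraries, differences ± SE from limma, and adjusted p is its Benjamini-Hochberg value over all genes. A gene was called at an adjusted p under 0.05. Precision is limited by how many arrays a group holds. The labels do not say which samples came from which embryo, so that libraries of 1 group may share an embryo and every p-value may be too small. In captured tissue, fewer cells of a type and less RNA per cell cannot be told apart.

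Marker lists were compared with the labels as means of log2 ratios over each list. The group labelled E10.5 mandibular arch ectoderm averaged -0.23 for the surface ectoderm list and 1.48 for the mesenchyme list, which goes against its label. The group labelled E10.5 maxillary arch averaged 1.12 for surface ectoderm and 0.66 for mesenchyme, with libraries 1 to 4 between 0.82 and 2.36 for surface ectoderm and library 5 at -0.78. Neither group entered a comparison, although both entered the shared estimate of spread. In the E9.5 otic vesicle, libraries 3 and 5 had surface ectoderm means of -0.07 and -0.70, while the other 4 were between 1.58 and 2.46, and library 5 had a neural epithelium mean of 1.59. The E9.5 cranial mesenchyme libraries had mesenchyme means between 1.81 and 3.05. Their neural epithelium means ran from -0.85 to 1.24, where the E9.5 neuroepithelium group averaged 1.18. Cranial mesenchyme is the reference group in several comparisons below.

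The 7 genes differed in how far their levels spread over the face. Pcdh18 and Pcdh19 had the widest ranges of group means, 2.58 and 2.75 on the log2 scale, and Pcdh9 spanned 1.87, Pcdh7 1.04, Pcdh17 0.86, Pcdh10 0.78 and Pcdh8 0.49, against a median of 0.80 and an upper quartile of 1.84 over all genes. Differences between groups accounted for 57.5% of the variance of Pcdh18, 48.2% for Pcdh19, 43.1% for Pcdh10, 36.3% for Pcdh9, 32.2% for Pcdh7, 30.7% for Pcdh8 and 28.5% for Pcdh17, where the median over all genes was 35.6%. By limma's F test over the 22 groups, 5 of the 7 members were called, where 59% of all genes were. Pcdh18 had F = 5.24 (adjusted p = 4.6e-07), Pcdh19 3.6 (adjusted p = 9.8e-05), Pcdh10 2.9 (adjusted p = 0.0011), Pcdh9 2.21 (adjusted p = 0.013) and Pcdh7 1.83 (adjusted p = 0.048). Pcdh8, with F = 1.69 (adjusted p = 0.076), and Pcdh17, with 1.54 (adjusted p = 0.13), did not pass. Pcdh8 was called with array weights (adjusted p = 0.0022) and without floor plate library 3, epidermal ectoderm library 5 or E9.5 neuroepithelium library 1 or 2 (lowest adjusted p = 0.021). Pcdh17 was called after quantile normalization (F = 3.45, adjusted p = 0.00019) and without non-floor plate library 4 or control neuroepithelium library 2 or 3 (lowest adjusted p = 0.036). The Pcdh7 call was lost in 70 of the 102 fits that left out 1 library, and the Pcdh9 call was lost without epidermal ectoderm library 2, 3 or 4. In the order of group means, all 21 pairs of neighbouring groups overlapped for each of the 7 genes, so the orders below are orders of means and not of separated groups.

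**Figure D1:**
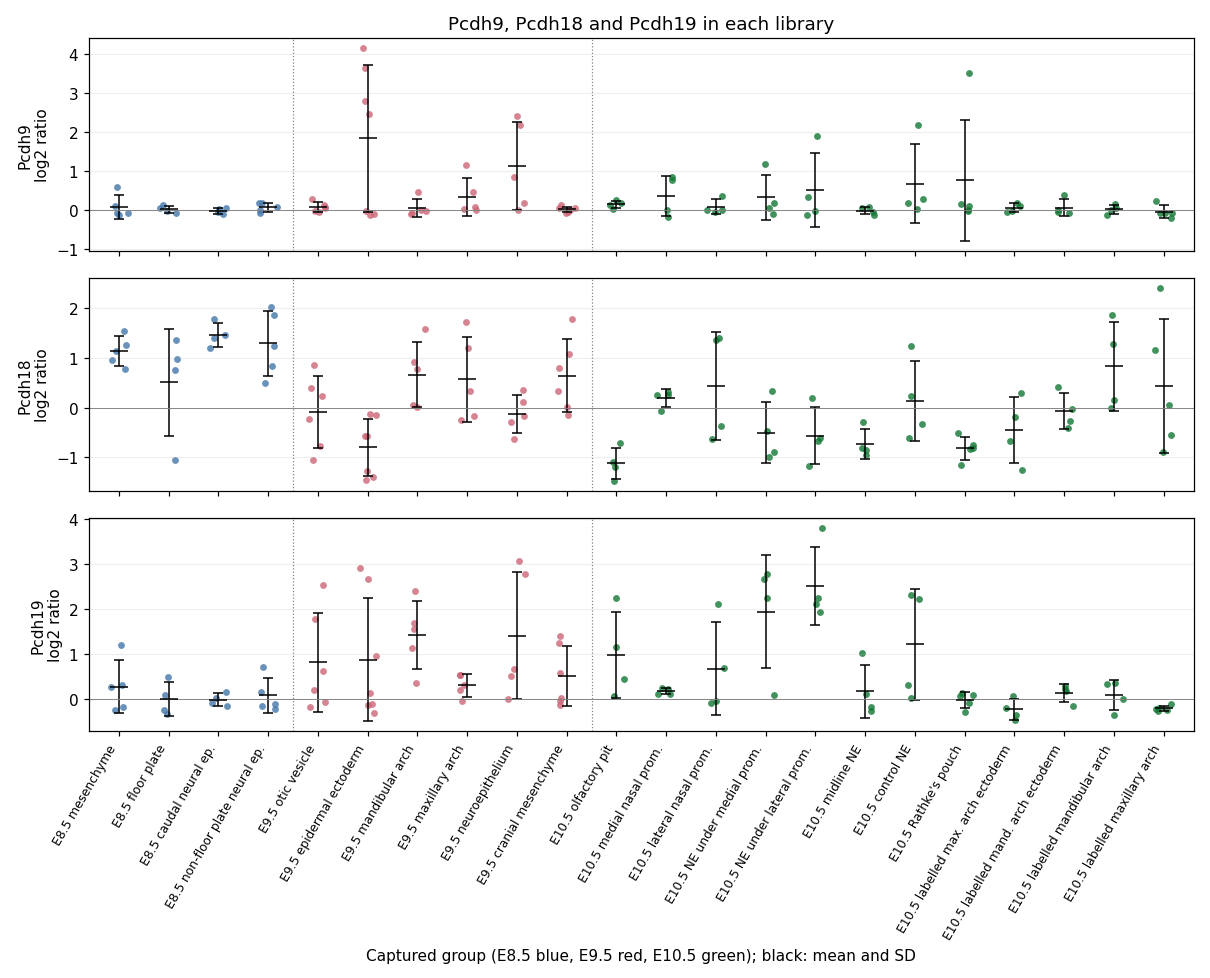
Log2 ratios (vertical axes) of Pcdh9, Pcdh18 and Pcdh19 in each of the 102 libraries, by captured group (horizontal axis, from E8.5 to E10.5), with the group mean and SD in black. Pcdh18 is above the baseline in 17 of 18 E8.5 libraries, Pcdh19 is highest in the neuroepithelium under the nasal prominences, and Pcdh9 is near 0 apart from a few high libraries.

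Pcdh18, a delta-2 member, had its highest group means in E8.5 caudal neural epithelium, non-floor plate neural epithelium and mesenchyme. It was above the baseline in 17 of the 18 E8.5 libraries, in 18 of 34 at E9.5 and in 17 of 50 at E10.5. Its 4 caudal neural epithelium libraries lay at 1.46, 1.40, 1.19 and 1.78, a mean of 1.46 ± 0.24, and the 5 mesenchyme libraries lay between 0.78 and 1.54, a mean of 1.14 ± 0.29. Mesenchyme and neural epithelium of E8.5 thus both stood above the baseline, and only floor plate library 1, at -1.06, lay below it. The floor plate mean was 0.51 ± 1.07 (n = 4), below those of the E10.5 mandibular arch and of the E9.5 arches and cranial mesenchyme. The highest single library, at 2.40, was in the group labelled E10.5 maxillary arch. Epidermal ectoderm, otic vesicle, olfactory pit and Rathke's pouch have no E8.5 group, so the counts by stage do not compare like tissues. E8.5 mesenchyme differed from the neural epithelia of its stage by 0.05 ± 0.36 (adjusted p = 1.0), where 2.4% of all genes were called.

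The lowest Pcdh18 levels were in epithelia of E9.5 and E10.5. The means were -1.12 ± 0.31 in the olfactory pit (n = 4), -0.81 ± 0.23 in Rathke's pouch (n = 5), -0.79 ± 0.57 in E9.5 epidermal ectoderm (n = 7) and -0.73 ± 0.29 in midline neuroepithelium (n = 4). All libraries of these 4 groups lay below 0. E9.5 mesenchymal groups had means above the baseline, 0.66 ± 0.65 in the E9.5 mandibular arch (n = 5), 0.64 ± 0.73 in cranial mesenchyme (n = 6) and 0.57 ± 0.86 in the maxillary arch (n = 5), but single libraries in them reached down to -0.25. At E10.5 the mean was 0.83 ± 0.90 in the mandibular arch (n = 4, lowest library 0.00), 0.44 ± 1.09 in the lateral nasal prominence (n = 4, lowest library -0.62) and 0.19 ± 0.18 in the medial nasal prominence (n = 4, lowest library -0.07).

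One Pcdh18 difference was called. In E9.5 epidermal ectoderm, the surface layer of the head, Pcdh18 ranged from -1.45 to -0.13 with a median of -0.57 over 7 libraries, against -0.25 to 1.71 with a median of 0.55 over the 10 libraries of the mandibular and maxillary arches. The groups overlapped only between -0.25 and -0.13, where 2 libraries of each side lay. Pcdh18 fell by 1.41 on the log2 scale (SE 0.34, adjusted p = 0.0012), a 2.65-fold lower level in ectoderm. This comparison called 37% of all genes, 2720 higher and 4653 lower (3376 and 1773 after quantile normalization), and 2 of the 7 members, which is near that background. The mesenchyme list moved with it, averaging 0.29 in ectoderm (library means from -0.86 to 1.08) against 2.12 and 2.01 in the mandibular and maxillary arches, with 6 of its 8 genes lower in ectoderm by the test. All 8 genes of the endothelial list were lower, with means of -0.07 against 1.81 and 1.43, and 4 of the 5 measured erythroid genes were lower, with means of -0.88 against 0.67 and 0.76. Of the surface ectoderm list 7 of 8 were higher, with means of 1.56 against -0.24 and -0.09. The part of these cell types in the Pcdh18 difference was not tested.

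Further Pcdh18 differences were of similar size without passing. The E9.5 neuroepithelium had -0.28, -0.17, 0.10, -0.63 and 0.35, against 0.50, 1.24, 0.83, 2.02 and 1.87 in E8.5 non-floor plate neural epithelium. No library of one stage overlapped the other, as for 3.89% of all genes. The difference was -1.42 ± 0.43 (adjusted p = 0.10, 1.06% of all genes called). The olfactory pit, the invaginating nasal placode, had -0.72, -1.09, -1.20 and -1.47, against 1.36, -0.62, 1.39 and -0.38 in the lateral and 0.26, -0.07, 0.25 and 0.32 in the medial nasal prominence. Here too the groups did not overlap, as for 1.02% of all genes. The difference was -1.43 ± 0.42 (adjusted p = 0.081, 0.913% of all genes called). Without lateral nasal library 2 that adjusted p was 0.038. Between the nasal prominences and the neuroepithelium under them Pcdh18 differed by 0.85 ± 0.34 (adjusted p = 0.064), and it was called on leaving out lateral nasal library 2 or 4, lateral neuroepithelium library 1 or medial neuroepithelium library 2, the lowest of these adjusted p-values being 0.037.

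Pcdh19, a delta-2 member on the X chromosome that is known for its association with N-cadherin and for an epilepsy that mainly affects females, was highest in the E10.5 neuroepithelium under the nasal prominences. The 4 libraries of neuroepithelium under the lateral nasal prominence had 3.79, 1.92, 2.23 and 2.10, a mean of 2.51 ± 0.87, and the 4 under the medial prominence had 2.23, 2.66, 2.78 and 0.07, a mean of 1.93 ± 1.26. Medial library 4 was the only one of these 8 near the baseline. In the nasal prominences themselves, the facial swellings over this neuroepithelium, Pcdh19 had 0.21, 0.23, 0.11 and 0.11 on the medial and 0.69, -0.06, 2.11 and -0.10 on the lateral side. Lateral nasal library 3, at 2.11, was the only library of the prominences above 1.

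Pcdh19 fell in the prominences relative to the neuroepithelium by 1.81 on the log2 scale (SE 0.40, adjusted p = 0.00073), a 3.51-fold lower level, although the groups overlapped. This comparison called 20.9% of all genes, 1193 higher and 2972 lower (1780 and 1526 after quantile normalization), and Pcdh19 was the 1 member of 7 called, a share near the background. The neural epithelium list averaged -0.43 in the medial and -0.54 in the lateral prominence against 1.60 and 1.85 in the neuroepithelium under each, with 6 of its 8 genes lower in the prominences by the test and 1 higher. The early neuron list averaged -0.08 and -0.13 against 2.20 and 1.27, with 6 of 8 lower, and the mesenchyme list 1.27 and 1.34 against -0.75 and -0.66, with 6 of 8 higher. Lateral nasal library 3, with the high Pcdh19, also had the highest early neuron and neural epithelium means of the 8 prominence libraries, 1.00 and 0.23. The part of these tissues in the Pcdh19 difference was not tested.

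In several other groups Pcdh19 was also uneven between libraries, as it was under the medial prominence. The E9.5 neuroepithelium had 2.77, 3.06, 0.51, 0.66 and 0.00 and the E10.5 control neuroepithelium 2.22, 0.01, 0.29 and 2.31, so each group held both high libraries and libraries near the baseline. E9.5 neuroepithelium exceeded E8.5 non-floor plate neural epithelium, whose highest library was at 0.71, by 1.33 ± 0.51 (adjusted p = 0.29). Midline neuroepithelium had 0.10, 1.01, -0.28 and -0.18, a difference of -1.05 ± 0.56 from the control neuroepithelium (adjusted p = 1.0). In E9.5 epidermal ectoderm libraries 3 and 4 reached 2.65 and 2.90 while the median was 0.13, and in the otic vesicle libraries 4 and 6 reached 2.52 and 1.76 with a median of 0.40. The E9.5 mandibular arch had 2.39, 1.67, 1.55, 0.35 and 1.12, against -0.06, 0.53, 0.54, 0.18 and 0.30 in the maxillary arch. Of the mandibular libraries 4 of 5 lay above every maxillary library, yet the difference of 1.12 ± 0.51 did not pass (adjusted p = 1.0), in a comparison that called 0.0702% of all genes. The lowest group means were -0.24 ± 0.23 in E10.5 maxillary arch ectoderm (n = 4) and -0.22 ± 0.06 in the group labelled E10.5 maxillary arch (n = 5). Rathke's pouch, at -0.03 ± 0.18 (n = 5), was level with E8.5 caudal neural epithelium, at -0.02 ± 0.14 (n = 4). Other ectodermal groups were higher, among them the olfactory pit at 0.97 ± 0.96 (n = 4) and E9.5 epidermal ectoderm at 0.87 ± 1.37 (n = 7).

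Pcdh9, a delta-1 member, was near the baseline in most of the face and high in single libraries. It lay within 0.5 of the baseline in 87 of 102 libraries, above 1 in 11 and above 2 in 8, and the 11 were spread over 7 groups. The highest of the 18 E8.5 libraries was at 0.60. The highest group mean was that of E9.5 epidermal ectoderm, 1.84 ± 1.87 (n = 7), where libraries 1, 2, 3 and 4 had 2.47, 4.16, 3.65 and 2.79, against -0.11, -0.03 and -0.09 in libraries 5, 6 and 7. The group thus fell into 4 high libraries and 3 at the baseline. Both probe sets of the gene were alike in pattern, with r = 0.942 over the 102 libraries, which share the arrays. They differed in size: the one used, chosen for its higher mean, reached 4.16 and the other 1.92.

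Pcdh9 rose in epidermal ectoderm relative to the arches, where 1 of 10 libraries exceeded 1 (maxillary library 2, at 1.16). The difference was 1.63 ± 0.37 (adjusted p = 0.00064), a 3.1-fold higher level. Over the alternative fits, apart from those that left out 1 library, it ran from 1.09 to 2.10. Fitted on the compared groups alone, with the spread of these libraries only, the adjusted p was 0.061. The surface ectoderm list had means of 1.53 to 1.84 in the 4 high libraries, against 1.88, 1.51 and 0.63 in libraries 5, 6 and 7. The early neuron list had -0.08, 0.31, 0.57 and 1.39 in the high libraries, against -0.24, -0.08 and -0.90 in the others. Library 7 was also the array with the widest spread of log2 ratios in the study, an SD of 1.33.

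The otic vesicle, another derivative of head ectoderm, lacked high Pcdh9 libraries. Its 6 libraries ranged from -0.04 to 0.29 with a median of 0.08, against -0.11 to 4.16 with a median of 2.47 in epidermal ectoderm. Pcdh9 fell by 1.75 on the log2 scale in the otic vesicle (SE 0.42, adjusted p = 0.025), where 0.391% of all genes were called, 62 higher and 16 lower (44 and 22 after quantile normalization). The otic call did not hold in every fit: without ectoderm library 1, 2 or 3 the adjusted p was 0.058, 0.13 or 0.081, and without otic library 4 or 6 it was 0.063 or 0.052. With the compared groups alone it was 0.90, and with the mean of both probe sets the difference was -1.15 (adjusted p = 0.042). Without otic libraries 3 and 5, whose markers go against the label, the difference was -1.76 (adjusted p = 0.044). The 2 Pcdh9 calls share the epidermal ectoderm libraries.

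In neural tissue, Pcdh9 was above 1 in E9.5 neuroepithelium libraries 2 and 5, at 2.19 and 2.42, in control neuroepithelium library 1 at 2.19, and in 1 library each of the neuroepithelium under the medial and lateral prominences, at 1.18 and 1.89. The E9.5 neuroepithelium mean of 1.13 ± 1.12 (n = 5) stood against 0.08 ± 0.12 in E8.5 non-floor plate neural epithelium (n = 5) and 0.03 ± 0.07 in cranial mesenchyme (n = 6). Neither the difference from the earlier stage, 1.06 ± 0.47 (adjusted p = 0.45), nor that from cranial mesenchyme, 1.11 ± 0.45 (adjusted p = 0.42, 1.15% of all genes called), passed. Midline neuroepithelium stayed between -0.13 and 0.07.

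**Figure D2:**
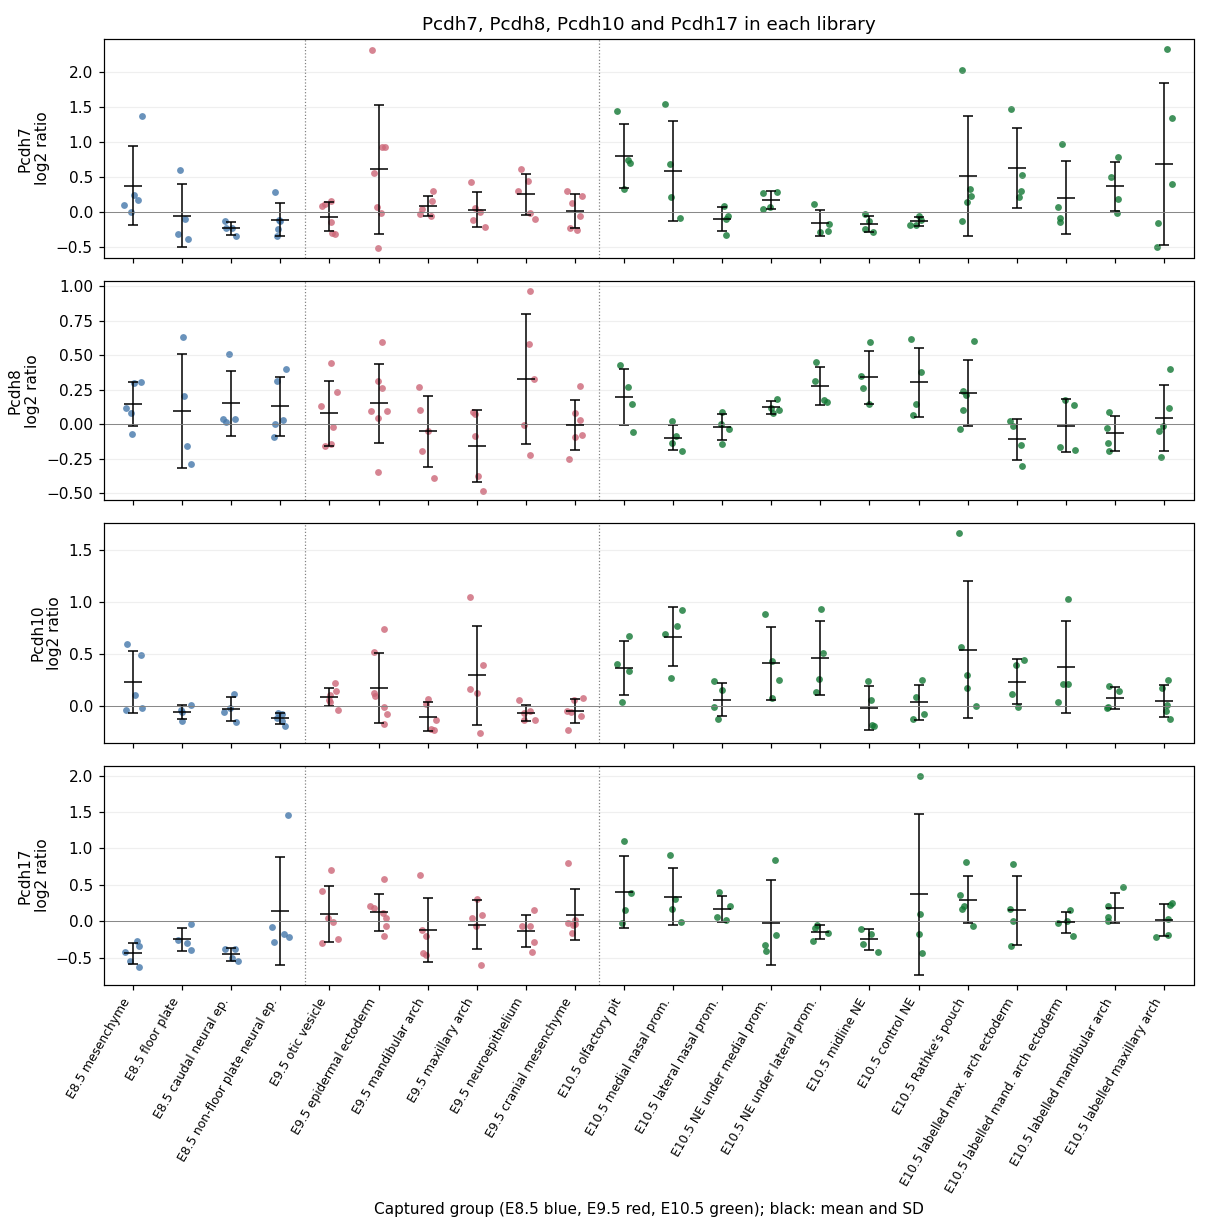
Log2 ratios (vertical axes, each with its own range) of Pcdh7, Pcdh8, Pcdh10 and Pcdh17 in each of the 102 libraries, by captured group (horizontal axis), with group mean and SD in black. Most libraries lie within 0.5 of the baseline, and the highest groups for Pcdh8 are neuroepithelia, for Pcdh7 the olfactory pit, and for Pcdh10 the medial nasal prominence.

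Pcdh7, the other delta-1 member, had its highest mean in the olfactory pit, with 1.44, 0.70, 0.74 and 0.33, a mean of 0.80 ± 0.46. The group labelled E10.5 maxillary arch, whose markers go against its label, followed with -0.15, 2.34, 0.40, 1.35 and -0.50, a mean of 0.69 ± 1.16, and its library 2 was the highest of all 102. Next in order, maxillary arch ectoderm had 1.48, 0.54, 0.31 and 0.21, a mean of 0.63 ± 0.58. E9.5 epidermal ectoderm ranged from -0.52 to 2.33 with a median of 0.57 (n = 7), and its mean was 0.56 ± 0.25 above the arches (adjusted p = 0.074). Without ectoderm library 1 or 7 that difference was called, with a lowest adjusted p of 0.032. The otic vesicle stayed between -0.31 and 0.16, a difference of -0.68 ± 0.29 from epidermal ectoderm (adjusted p = 0.32). Neural groups held the lowest means, -0.24 ± 0.09 in E8.5 caudal neural epithelium and -0.17 ± 0.12 in midline neuroepithelium (n = 4 each). Medial nasal libraries had 0.69, -0.09, 1.54 and 0.22, against -0.05, -0.33, 0.09 and -0.11 in the lateral prominence, a difference of 0.69 ± 0.36 (adjusted p = 0.61).

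Pcdh8, also called PAPC or arcadlin and known for a role in somite segmentation, had the narrowest range of the 7. It lay within 0.5 of the baseline in 94 of 102 libraries and never reached 1. Its 4 highest group means were all neuroepithelial, 0.34 ± 0.19 at the E10.5 midline (n = 4), 0.33 ± 0.47 at E9.5 (n = 5), 0.30 ± 0.25 in the control neuroepithelium (n = 4) and 0.28 ± 0.14 under the lateral prominence (n = 4). Not all neural groups were high: the neuroepithelium under the medial prominence had 0.123 ± 0.045 (n = 4), below Rathke's pouch and the olfactory pit. The means of the E8.5 neural epithelia lay between 0.10 and 0.15. The lowest, -0.15 ± 0.26, was in the E9.5 maxillary arch (n = 5). No Pcdh8 difference was called. In the nasal prominences it ranged from -0.19 to 0.09, against 0.09 to 0.45 in the neuroepithelium under them, a difference of -0.26 ± 0.12 (adjusted p = 0.11). Epidermal ectoderm exceeded the arches by 0.25 ± 0.12 (adjusted p = 0.076), which was called without ectoderm library 5, mandibular library 3 or maxillary library 4 or 5, with a lowest adjusted p of 0.022.

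Pcdh10, also called OL-protocadherin, which recruits the WAVE complex through Nap1, was highest in the medial nasal prominence. The 4 libraries there had 0.92, 0.77, 0.69 and 0.26, against 0.23, -0.01, -0.13 and 0.15 in the lateral prominence. The groups did not overlap, as for 3.73% of all genes. The difference was 0.60 ± 0.20 (adjusted p = 0.21, 0.115% of all genes called, 95% interval 0.21 to 0.99). Set against E9.5 cranial mesenchyme, which ranged from -0.24 to 0.07, the prominences together differed by 0.41 ± 0.15 (adjusted p = 0.098, 3.96% of all genes called), and by a called amount without medial nasal library 4 (adjusted p = 0.048). Rathke's pouch, the pituitary anlage, had 0.00, 0.29, 1.66, 0.18 and 0.56, with library 3 the highest of all 102. All 4 neuroepithelium libraries under each prominence were above 0, with means of 0.46 ± 0.35 on the lateral and 0.41 ± 0.35 on the medial side, whereas all 5 libraries of E8.5 non-floor plate neural epithelium were below 0, with the lowest group mean, -0.12 ± 0.05.

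Pcdh17, which recruits the WAVE complex in growing axons, was the member with the smallest share of variance between groups. E8.5 caudal neural epithelium had -0.38, -0.51, -0.55 and -0.37, all below the 5 libraries of non-floor plate neural epithelium, which ranged from -0.29 to 1.46. In this comparison 5.71% of all genes were without overlap. The difference of -0.59 ± 0.27 did not pass (adjusted p = 0.53, 1.42% of all genes called), and without non-floor plate library 4 it was -0.26. E9.5 cranial mesenchyme ranged from -0.16 to 0.79, without overlap with E8.5 mesenchyme, which ranged from -0.62 to -0.27. The difference was 0.53 ± 0.24 (adjusted p = 0.37, 1.53% of all genes called and 2.47% without overlap). In all, 17 of the 18 E8.5 libraries lay below 0, and the 1 above, at 1.46, was non-floor plate library 4. The highest single value, 2.00, was in control neuroepithelium library 3.

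**Figure D3:**
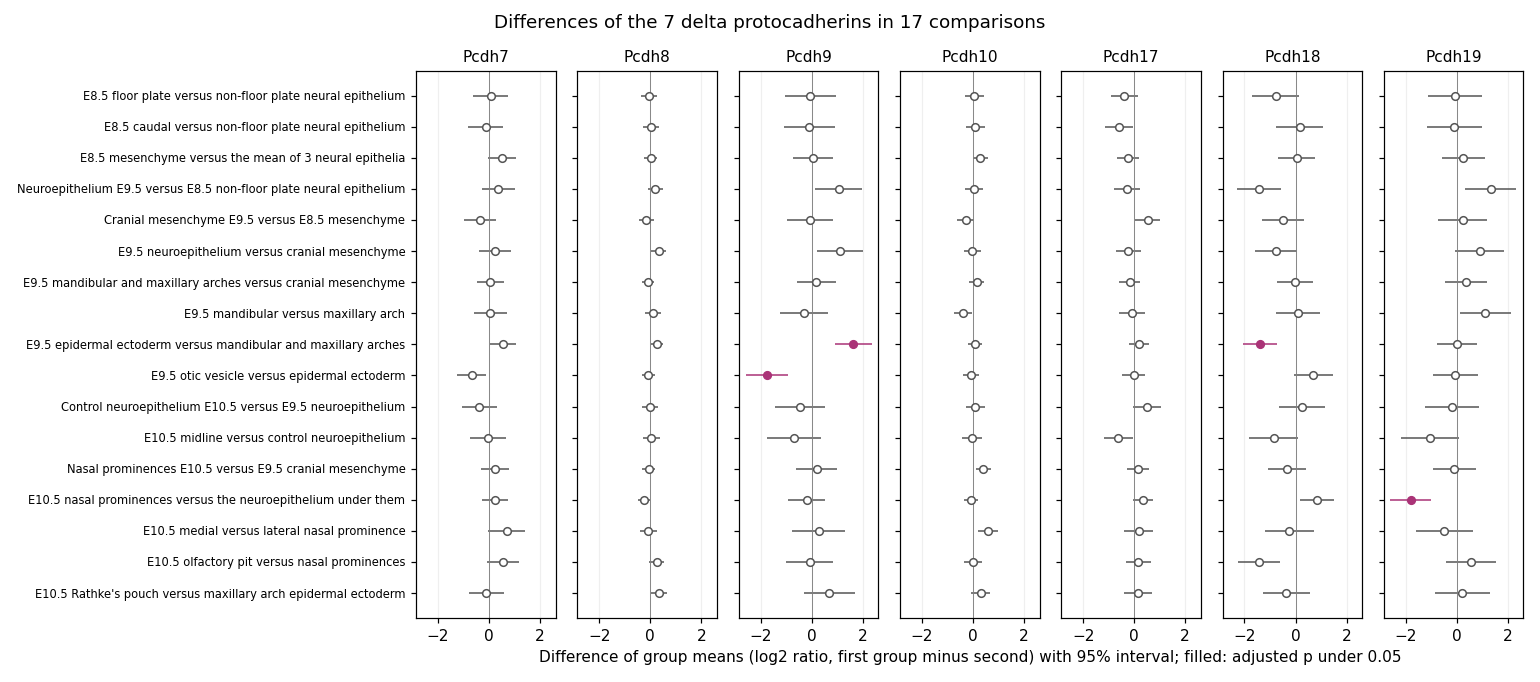
Differences of group means (horizontal axes, log2 ratio, first-named group minus second) with 95% intervals for the 7 genes in 17 comparisons (rows). The 4 filled points are the called differences, which belong to Pcdh9, Pcdh18 and Pcdh19.

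Over 17 comparisons of neighbouring regions or stages, 4 of the 119 pairs of gene and comparison were called, in 3 comparisons. That is 3.36%, where 4.38% of the pairs of all 19938 genes were called. An unadjusted p under 0.05 was found in 24 of the 119 pairs (20.2%), against 12.9% over all genes. In 5 pairs (4.2%), none of them called, the compared groups did not overlap, against 2.02% over all genes: 2 of Pcdh17, 2 of Pcdh18 and 1 of Pcdh10, as described above. By comparison, the share over all genes ran from 0.11% to 5.71%. In the comparisons of these 5 pairs it was between 1.02% and 5.71%. Many of these pairs share libraries. No member was called in the remaining comparisons, among them E8.5 floor plate against non-floor plate neural epithelium (0.181% of all genes called), the E9.5 arches against cranial mesenchyme (0.933%), E10.5 control neuroepithelium against E9.5 neuroepithelium (0.426%), midline against control neuroepithelium (0.471%) and Rathke's pouch against maxillary arch ectoderm (1.63%). Over these 5 named comparisons the largest member difference was Pcdh19 in midline neuroepithelium, given above. That difference had a 95% interval of -2.17 to 0.08.

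The members did not share 1 pattern. Over the 22 group means, which share arrays and baseline, Pcdh18 ran against each of the other 6, with Pearson r from -0.50 (Pcdh10) to -0.35 (Pcdh19). The highest likeness among the other members was between Pcdh7 and Pcdh10 (r = 0.47) and between Pcdh7 and Pcdh17 (r = 0.43), followed by Pcdh8 and Pcdh19 (r = 0.39). The subgroups did not form blocks. The delta-1 pair Pcdh7 and Pcdh9 had r = 0.25, below that of Pcdh7 with the delta-2 members Pcdh10 and Pcdh17. Pairs of delta-2 members ran from r = -0.50 (Pcdh10 and Pcdh18) to r = 0.39 (Pcdh8 and Pcdh19). Neighbours on the chromosome did not run together either: Pcdh10 and Pcdh18, which both flank Pabpc4l in the RefSeq annotation of protein-coding genes, had r = -0.50, and Pcdh8 and Pcdh17, which both flank Olfm4, had r = -0.17.

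**Figure D4:**
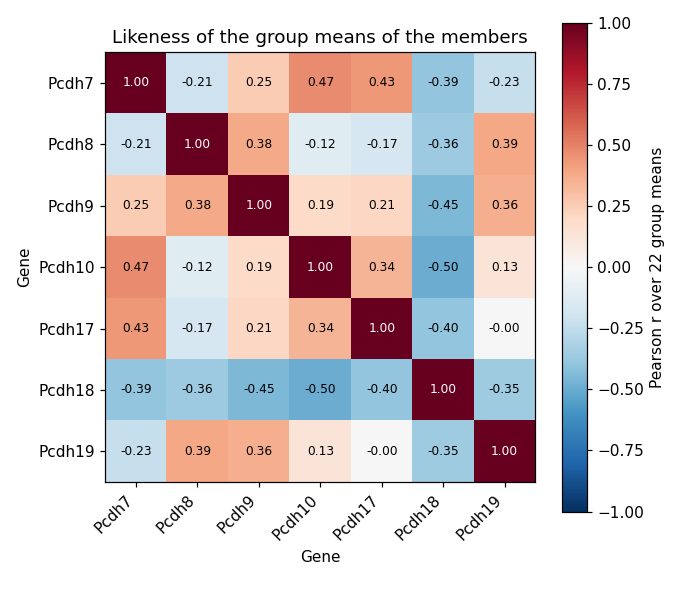
Pearson r between the 22 group means of each pair of members (rows and columns are genes, colour from -1 to 1). The Pcdh18 row is negative against all 6 other members, and the highest pair is Pcdh7 with Pcdh10 at 0.47.

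Set against the marker lists over the same 22 means, Pcdh8 followed the neural epithelium list most closely (r = 0.82) and ran against the mesenchyme list (r = -0.71). The Pcdh8 means spanned only 0.49, however, and the gene was not called by the F test (adjusted p = 0.076). Pcdh7 was most like the surface ectoderm list (r = 0.62), Pcdh19 the neural epithelium and early neuron lists (r = 0.53 and 0.51) and Pcdh18 the mesenchyme and endothelial lists (r = 0.42 and 0.41). Pcdh9 reached at most 0.22, with the neural epithelium list, Pcdh10 0.34 and Pcdh17 0.48, both with the erythroid list. The neural crest and paraxial mesoderm lists were most like Pcdh18 (r = 0.37) and Pcdh17 (r = 0.36).

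Of all other genes, the nearest to Pcdh19 in group means were Rasal2, a Ras GTPase-activating protein (r = 0.87), Dpysl3, a microtubule-associated protein of growth cones (r = 0.81), and Nr2e1, the neural stem cell receptor Tlx (r = 0.80). Those nearest to Pcdh18 were Renbp (r = 0.85), Mogat2 (r = 0.82) and Fam78b (r = 0.81). Pcdh7 was most like Apoc1 (r = 0.81), the epithelial factor Klf5 (r = 0.80) and Aldh3b2 (r = 0.80), and Pcdh8 was most like Gkap1 (r = 0.82), Tpbg (r = 0.81) and Pbx4 (r = 0.81). For Pcdh10 the nearest were the potassium channel Kcnq3 (r = 0.79), the phosphatase inhibitor Set (r = 0.79) and Vps18 (r = 0.77), and for Pcdh17 they were Fads6 (r = 0.80), Rhbdl3 (r = 0.79) and Selplg (r = 0.78). Pcdh9 was most like Malat1, a nuclear noncoding RNA (r = 0.77), the non-muscle myosin Myh9 (r = 0.76) and Adamts5 (r = 0.74). Library by library the likeness to Malat1 was partial: of the 11 libraries with Pcdh9 above 1, 4 also had Malat1 above 1, as did 12 of all 102, and in epidermal ectoderm the 4 high Pcdh9 libraries had Malat1 at 2.56, 0.11, 4.97 and -0.12.

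Genes that work with delta protocadherins changed mainly in the same 2 comparisons that called most genes. Of the WAVE complex, 8 of 9 listed subunits were measured, and 3 fell in epidermal ectoderm relative to the arches, with none rising: Nckap1, the Nap1 that Pcdh10 binds (-1.14 ± 0.36, adjusted p = 0.01), Brk1 (-1.05 ± 0.27, adjusted p = 0.0023) and Abi1 (-1.04 ± 0.39, adjusted p = 0.031). That is 3 of 8 where 37% of all genes were called. After quantile normalization 1 of 8 was higher and 1 lower, with only Brk1 of these 3 still called. The median over the 8 was -0.38, against -0.05 over all genes. In the nasal prominences relative to the neuroepithelium under them 3 also fell, Nckap1 (-1.49 ± 0.36, adjusted p = 0.0023), Cyfip2 (-0.56 ± 0.13, adjusted p = 0.0008) and Wasf1 (-0.56 ± 0.17, adjusted p = 0.013), again 3 of 8, where 20.9% of all genes were called, and the median was -0.52, against -0.05 over all genes. After quantile normalization the same 3 were lower and 1 of 8 was higher, with a list median of -0.38.

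Of 8 listed partners, all measured, 1 rose and 3 fell in epidermal ectoderm, where 37% of all genes were called. Cdh11, a mesenchymal cadherin, fell by 3.00 (SE 0.33, adjusted p = 1.5e-10) and the cadherin-bound catenin Ctnnb1 fell by 1.43 (SE 0.54, adjusted p = 0.032), while the adaptor Dab1 rose by 2.14 (SE 0.54, adjusted p = 0.002), with a median of -0.41 over the list, against -0.05 over all genes. After quantile normalization Ctnnb1 was no longer called there (adjusted p = 0.13). In the nasal prominences, where 20.9% of all genes were called, 4 of 8 fell and none rose, among them Ctnnb1 by 3.11 (SE 0.55, adjusted p = 3e-05), the phosphatase Ppp1ca, a subunit of the enzyme that delta-1 tails bind, by 1.94 (SE 0.42, adjusted p = 0.00052) and Dab1 by 1.68 (SE 0.55, adjusted p = 0.022), and the list median was -0.92, against -0.05 over all genes. After quantile normalization 3 fell and 1 rose, and Dab1 was no longer called (adjusted p = 0.10). Cdh11 also passed in 3 comparisons without a called WAVE subunit. It rose in E8.5 mesenchyme relative to the neural epithelia by 1.29 (SE 0.35, adjusted p = 0.024, and 0.063 after quantile normalization) and in the otic vesicle relative to epidermal ectoderm by 1.63 (SE 0.37, adjusted p = 0.018), and it fell in E9.5 neuroepithelium relative to the earlier neural epithelium by 1.53 (SE 0.42, adjusted p = 0.049). Ppp1ca also fell in the nasal prominences relative to E9.5 cranial mesenchyme, by 1.86 (SE 0.45, adjusted p = 0.011, and 0.065 after quantile normalization).

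Of 5 other non-clustered protocadherins, 3 rose in epidermal ectoderm, where 37% of all genes were called: Pcdh15 of hair-cell tip links by 0.32 (SE 0.13, adjusted p = 0.043, and 0.056 after quantile normalization), the endothelial Pcdh12 by 0.29 (SE 0.10, adjusted p = 0.026) and the delta-1 member Pcdh11x by 0.20 (SE 0.06, adjusted p = 0.0072), and none fell. Pcdh12 rose in the nasal prominences by 0.30 (SE 0.11, adjusted p = 0.035), and the delta-1 member Pcdh1 fell in E9.5 neuroepithelium relative to cranial mesenchyme by 0.81 (SE 0.22, adjusted p = 0.035). Of the giant and seven-pass cadherins, 8 of 9 were measured, and 4 rose in epidermal ectoderm, against the same 37% of all genes, led by the planar polarity gene Celsr2, which rose by 0.60 (SE 0.14, adjusted p = 0.0012). Celsr2 also rose in E9.5 neuroepithelium relative to cranial mesenchyme by 0.64 (SE 0.18, adjusted p = 0.045). In ectoderm Celsr3 and Celsr1 rose by 0.26 each (adjusted p = 0.039 and 0.038). Celsr3 rose by 0.30 in the nasal prominences relative to the neuroepithelium (adjusted p = 0.032). Celsr1 rose by 0.50 in E8.5 caudal against non-floor plate neural epithelium (adjusted p = 0.04). Fat1 rose by 0.40 in Rathke's pouch against maxillary arch ectoderm (adjusted p = 0.045). After quantile normalization these last differences were not called (adjusted p = 0.064, 0.99 and 0.35).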

How the data were processed

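Per the labels' protocols, regions were captured by laser microdissection from frozen sections of timed CD1 embryos, RNA was amplified by NuGEN Ovation Pico WTA V2 and hybridised to Affymetrix arrays. The authors deposited a linear ratio per probe set and sample. The submitters' processing notes name RMA and build mm9, with no role or version. Over 21 of the samples every probe set had a median ratio of 1 within 6e-08. How the division was made is not given in the sources used here. The deposited ratios were taken as log2 without a pseudocount or filter, since no detection values are used. Values were given for 28856 of 35557 probe sets. Of these, 21789 had 1 gene symbol, 1621 several and 5446 none. Where a gene had more than 1 probe set, that of highest mean log2 ratio stood for it, which gave 19938 genes. No level can be set between genes.

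limma 3.58.1 in R 4.3.3 was fitted to group means over 102 libraries, with 80 residual degrees of freedom, and Benjamini-Hochberg adjustment over all genes within each comparison. The 7 members, the gene lists, the 17 comparisons and the SD limit of 0.85 that marks 11 widely spread arrays were chosen with earlier results of these data known. The text names the members, the 3 genes with the most similar group means for each, and up to 3 called genes with the largest difference per list and comparison, which leaves the marker lists to counts and means. Ppp1ca, Cdh11, Celsr1, Celsr2, Celsr3 and Fat1 fall under that rule in further comparisons. An E9.5 sample titled mandibular arch but otherwise labelled epidermal ectoderm was left out, and 4 E10.5 samples titled lateral but otherwise labelled medial were taken as neuroepithelium under the medial prominence. Gene neighbours came from RefSeq names for GRCm38.p6, without coordinates. The fits were tested on simulated data. Alternatives were quantile normalization, array weights, leaving out the widely spread arrays, the mean of all probe sets, the compared groups alone with and without a replicate block, the conflicting sample placed in either group, and each replicate left out in turn. Fits without otic libraries 3 and 5, and without the 2 E10.5 groups that go against their labels, were chosen after seeing the data.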

Additional observations from a re-analysis of the deposited data

Results flagged for a closer look

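In 10 of 154 sets of values, each of 1 gene in 1 group, a single library stood apart from the others of its group by Dixon's criterion. Chance gives about 1 such set in 20, and in all 10 the library lay above its group. Rathke's pouch library 5 stood apart for both delta-1 members, with Pcdh9 at 3.52 (the other 4 between -0.01 and 0.17) and Pcdh7 at 2.03 (the others between -0.13 and 0.33). Pcdh7 was also high in E8.5 mesenchyme library 5, at 1.37, where the others reached 0.25. Pcdh9 was at 2.19 in control neuroepithelium library 1, at 0.37 in lateral nasal library 3 and at 0.46 in E9.5 mandibular arch library 4. Pcdh17 was at 1.46 in E8.5 non-floor plate library 4 and at 0.79 in cranial mesenchyme library 2, and these 2 libraries entered the Pcdh17 comparisons without overlap. Pcdh8 was at 0.51 in E8.5 caudal library 2, and Pcdh19 at 3.79 in library 1 of the neuroepithelium under the lateral prominence, where the others reached 2.23.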

How the results depend on the processing

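Of 482 values of the 24 pairs of gene and comparison with an unadjusted p under 0.05, under all alternatives, 0 reversed, 31 were newly called and 10 were no longer called. Counts of called members moved as follows, with the cause not tested. In epidermal ectoderm against the arches, 2 members became 4 under quantile normalization and under array weights, with Pcdh7 and Pcdh8 added, and 1 with the compared groups alone, where Pcdh18 stayed called. For the otic vesicle, 1 became 0 with the compared groups alone and with the conflicting sample as ectoderm. For the nasal prominences against the neuroepithelium, 1 became 2 under quantile normalization, array weights, without the 2 E10.5 groups and on dropping the widely spread arrays (Pcdh18 added), and for the compared groups alone (Pcdh8 added). From 0, 1 member was called under quantile normalization for cranial mesenchyme between stages (Pcdh17), nasal prominences against cranial mesenchyme and medial against lateral prominence (both Pcdh10), and under array weights for neuroepithelium between stages (Pcdh18) and neuroepithelium against cranial mesenchyme (Pcdh8). The olfactory pit gained 1 (Pcdh18) under array weights, without the widely spread arrays and without the 2 E10.5 groups. Leaving out 1 library gave 3 to 5 members by the F test, 0 to 1 for the otic vesicle, 0 to 1 for the nasal prominences against cranial mesenchyme, 1 to 2 against the neuroepithelium and 0 to 1 for the olfactory pit. Over all genes, counts of calls moved by over 1.5 times in 9 of 17 comparisons under quantile normalization, 11 under array weights, 5 on dropping the widely spread arrays and 14 for the compared groups alone. For epidermal ectoderm against the arches, 7373 genes were called, and 3907 with the compared groups alone.

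Whether same-numbered samples came from 1 embryo is not known. Over 49 same-numbered pairs the correlation of deviations ran from -0.38 to 0.60, and in 0 of 11 comparisons were all pairs over 0.1. Tissues of 1 embryo need not deviate together, so these values cannot decide whether the numbers pair the samples. The replicate number was fitted as a block on the compared groups alone. Epidermal ectoderm against the arches then had 1 called member and 704 called genes, against 3907 genes in the same groups without the block. The otic vesicle had 0 members and 2 genes, against 1 gene without the block. The main fit takes its spread from all 22 groups. Against that fit, the count of called genes with the block moved by over 1.5 times in 16 of 16 comparisons. The block was not run for the nasal prominences against the neuroepithelium under them, since the numbers of the medial neuroepithelium libraries follow accession order only.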

Other observations

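The E9.5 sample whose title says mandibular arch and whose other labels say epidermal ectoderm had Pcdh18 at 0.25, Pcdh9 at 0.08 and Pcdh19 at 0.08 on the log2 scale. Its other members were Pcdh7 at -0.16, Pcdh8 at 0.04, Pcdh10 at -0.10 and Pcdh17 at -0.21. Its means were 1.73 for the mesenchyme list and 1.36 for the surface ectoderm list, so markers of both tissues were above the baseline.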
